A study of Citrus sinensis with 2 samples.

Results

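The names miR771 to miR870 were given to miRNAs found when deep sequencing of Arabidopsis small RNA began, and a block of them, miR806 to miR821, was given in rice. The known miRNAs of the deposited count table with a number in this range were taken by name, without miR827, miR828, miR857 and miR858, which have their own well-described targets. This gave 52 names out of the 1215 in the table. Of these, 6 lie between miR771 and miR783, 5 carry rice numbers (miR810, miR812, miR815, miR818 and miR821) and 41 lie between miR822 and miR870. The rice numbers go against a purely Arabidopsis origin, so the whole set is called here the miR771 to miR870 names. Another 44 numbers of the range have no row in the table.

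Small RNA libraries of 2 treatments were compared, both from fully expanded leaves of sweet orange (Citrus sinensis) seedlings of the cultivar Xuegan grown in sand. The Mg-sufficient library came from seedlings given 1 mM MgSO4 for 16 weeks and the Mg-deficient library from seedlings given 0 mM MgSO4 for the same time. In the latter, the methods state that sodium sulfate replaced the MgSO4, so that both groups received the same sulfur. Leaves of 5 plants were pooled for each library. With 1 library per treatment there is no spread between replicates, and every difference below compares these libraries and not the treatments. The overview of sequencing in the paper lists the read totals and read classes of both libraries under the opposite treatments to the deposited tables. The treatment names of the deposited tables were used throughout, and if that overview were right instead, every direction given below would be reversed. Which of them is right cannot be told from the counts of miRNA names. The fold changes printed in the paper follow the treatment names of the deposited tables. The paper also reports that qRT-PCR of selected known miRNAs, run with biological replicates, matched its sequencing for most of them. The paper's primer list for this qRT-PCR holds 3 members, miR779, miR782 and miR833, and none of them is among the exceptions it names. The qRT-PCR values were not used here. The tissue could not be checked against marker genes, since the table holds only miRNA names.

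A miRNA is cut from a hairpin precursor and guides the silencing of mRNAs, which in plants pair with it over nearly its whole length. Old miRNA families are found in all land plants, are abundant and mostly target transcription factors. Young ones arise from inverted repeats or transposons, are found in a single lineage, are usually weak and often have no known target. Many of the Arabidopsis names in this range are known from the Brassicaceae only. Citrus belongs to another plant order, and the citrus gene annotation (RefSeq, assembly DVS_A1.0) holds 48 miRNA gene names, none of which is that of a member. The names in the count table were assigned by the authors to reads with up to 2 mismatches to a miRBase entry. A name therefore says which entry a read resembles and does not show that the leaf carries the miRNA of that name.

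The listed sequences of the names on which the results turn are shown first, 5′ to 3′ as listed by the study, with the seed (bases 2 to 8) in capitals. The first 4 were higher in the Mg-deficient library, from 5.13-fold for miR859 to 228-fold for miR812. The next 5 were nearly absent from that library, and the last 4 were abundant in both libraries.
miR812: aCGGCACGauuaaagaugggccau
miR833: uGAUUUGUugauaaucggcucagu
miR863: uUGAGAGAcaacaagaagaucau
miR859: uGAUUAUUaaauagaucgua
miR779: uCUGCUCAuagauugucugcucau
miR782: aCAAACAGaguuggauuucuu
miR869: uUUGGUUCaguucggguug
miR848: gACGUGGGacuaacagaggcuaua
miR773: uAUCUUUGaacagauuuga
miR818: aGGAGCAUuaggauggaccau
miR861: cUUGGAGAaauuaugagcgucaga
miR850: uAAAGAUCcggaaacaaccaag
miR774: uGAGGAUGaagaugaggaugc

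A sequence is listed for 37 of the 52 names. Of the 15 without one, 14 were below 1 RPM in both libraries (RPM, counts scaled to 1000000 clean reads), and the other is miR810. The 37 seeds, compared at this fixed position, differ from each other. This does not compare whole sequences: miR829 and miR845 share 14 bases, from base 2 in the former and base 3 in the latter. Only miR818 and miR861 share a seed with another listed name, miR6032 and miR2936, respectively. Sequences of 24 nt were the most frequent, with 17 of 37 (45.9%), against 171 of the 653 other listed names (26.2%). The 21 nt length, typical of old miRNAs, was held by 10 members (27.0%) and by 35.4% of the others. The first base was U in 22 members (59.5%) and A in 11 (29.7%), and in the other names it was U in 49.2% and A in 30.2%. Median GC content was 41.7% in the members and 42.1% in the others. Several members are rich in purines: at least 75% of the bases were A or G in 7 of the 37, namely miR774, miR815, miR831, miR835, miR838, miR847 and miR854. The same held for 91 (13.9%) of the other names. MiR854, known in Arabidopsis for silencing an RNA-binding protein of the UBP1 family, was the extreme with 91.7% purines.

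The authors deposited read counts, which were divided here by the clean reads of each library (22218850 in the Mg-sufficient and 20328011 in the Mg-deficient library) to give the normalized read-count in RPM. All 52 members together had 7097 counts in the Mg-sufficient library, 0.139% of its 5097686 known miRNA counts, and 6974 counts in the Mg-deficient library, 0.232% of its 3003648. Known miRNAs as a whole made up 22.9% of the clean reads in the former and 14.8% in the latter. The overview mentioned above has the larger miRNA share under the other treatment. The 24 conserved families, such as miR156, miR166 and miR172, held 77.9% and 60.8% of the known miRNA counts.

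Summed, the members had 319 RPM with Mg and 343 RPM without it. On the log2 scale, Mg-deficient over Mg-sufficient, this was 0.10 (95% interval, 0.06 to 0.15), and turned to -0.15 when the clean-read totals were exchanged between the libraries. It was 0.74 with libraries scaled by their total count of known miRNAs, 0.44 with edgeR's TMM normalization and 0.47 with DESeq2's size factors. Intervals of log2 ratios are exact Clopper-Pearson intervals, those of normalized read-counts are Wilson intervals, and both cover counting error only. The shares of single names differed. In the Mg-sufficient library, miR818, miR861 and miR850 held 46.3% of the members' counts, and in the Mg-deficient library they held 30.2%. In the Mg-deficient library, miR812, miR833 and miR861 held 39.0%, although miR812 and miR833 had been 0.0705% and 0.240% of the members' counts in the other library.

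**Figure D1:**
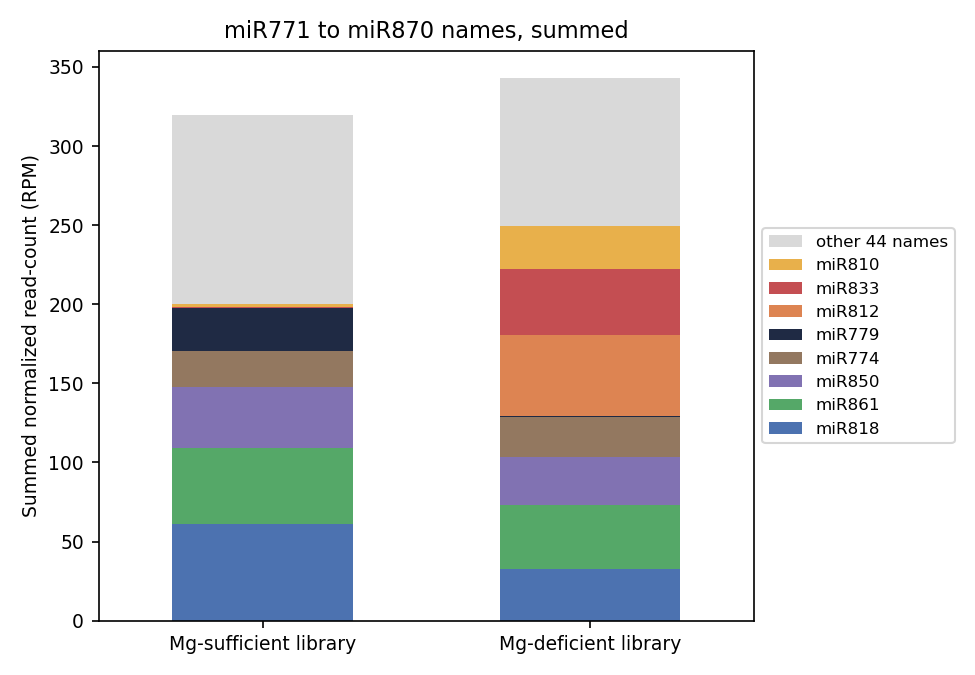
Summed normalized read-count (RPM) of the 52 miR771 to miR870 names in each library, stacked by name for 8 abundant names and with the other 44 pooled. Scaled by clean reads, the sums, 319 and 343 RPM, are close, which depends on that scaling. MiR812, miR833 and miR810 fill a large part of the Mg-deficient bar and little of the other. MiR779 is visible in the Mg-sufficient bar and only a thin line in the other.

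Most members were scarce. No member reached 100 RPM in a library, the most abundant, miR818, ranked 126 among all known miRNAs by mean RPM, and 14 members stayed below 1 RPM in both libraries. These 14 held 41 counts (0.578% of the members' counts) with adequate Mg and 32 (0.459%) without Mg, with at most 14 counts for a single name. No fold change is given for the 9 of them with at most 3 counts in both libraries. Among them are miR839, known in Arabidopsis to be cut by DICER-LIKE 4, with 1 and 0 counts. MiR823, which in Arabidopsis silences a chromomethylase of DNA methylation, had 14 and 11 counts. MiR842, a miRNA of jacalin lectin genes in Arabidopsis, had 0 and 7 counts. At this depth, a count of 0 allows a level of up to 0.135 RPM (Mg-sufficient) or 0.148 RPM (Mg-deficient), which is that of 3 counts. The upper ends of the Wilson intervals at 0 counts were higher, 0.173 and 0.189 RPM.

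The remaining 38 members had at least 1 RPM in at least 1 library. A name was called when 1 tail of the Audic-Claverie formula, the study's test of counts between libraries, was below 0.01 and the libraries differed by more than 1.5 on the log2 scale. A count of 0 was taken as 3 counts, which makes the change a lower bound under that convention. The 95% interval of the ratio reaches somewhat smaller changes, for miR782 to a log2 ratio of -5.94 where the bound is -6.25. Of the 38 members, 10 (26.3%) were called higher in the Mg-deficient library, where 25% of all 728 known miRNAs that passed the same filter were called higher. Another 11 (28.9%) were called lower, against 31.9% of all known miRNAs, and 17 were not called. Both shares are near the background. With the study's own filter of at least 10 RPM in at least 1 library, 9 members passed. Of these, miR810, miR812 and miR833 were called higher (28.1% of all 324 known miRNAs that passed) and miR779 and miR782 were called lower (25.6%). This split of 3 and 2 became 5 and 1 when the libraries were scaled by their total count of known miRNAs.

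The median log2 ratio of the 38 members was -0.30 with the clean-read totals, and that of all 728 known miRNAs was -0.46. The choice of library size shifts every log2 ratio by the same amount, by 0.63 with the total count of known miRNAs, by 0.34 with edgeR's TMM normalization, by 0.37 with DESeq2's size factors, and by -0.26 with the totals exchanged. The median of the members was above 0 with the first 3 of these, so its sign is not a result.

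The 3 blocks of numbers were set side by side as a description. The 6 names from miR771 to miR783 had 1502 and 555 counts in all (log2, -1.31, 95% interval, -1.45 to -1.17), and of the 5 that passed 3 were called lower and 0 higher. The 5 rice numbers had 1522 and 2454 counts (log2, 0.82, 0.72 to 0.91), and of the 4 that passed 2 were called higher and 0 lower. The 41 names from miR822 on had 4073 and 3965 counts (log2, 0.09, 0.03 to 0.15), a ratio that falls below 0 with the totals exchanged, and of the 29 that passed 8 were called higher and 8 lower. Of all 728 known miRNAs that passed, 25% were called higher and 31.9% lower. All 3 calls of the first block had at least 1 RPM in 1 library only. Of 383 such names among all known miRNAs, 89.8% were called. The first 2 blocks hold few names, and 1 name had much of each sum: miR779 had 603 of the 1502 counts and miR812 had 1041 of the 2454.

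**Figure D2:**
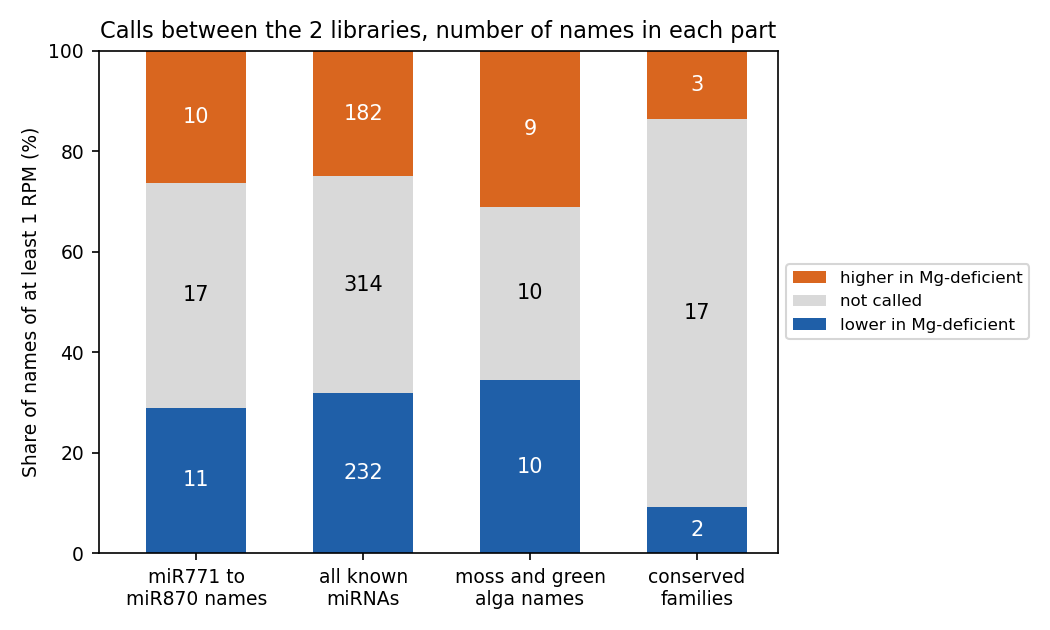
Share of the names of at least 1 RPM that were called lower (blue), not called (grey) or called higher (orange) in the Mg-deficient library, with the number of names in each part. The miR771 to miR870 names (10 higher, 17 not called, 11 lower) are divided much as all 728 known miRNAs are, while 17 of the 22 conserved families were not called. Among names of at least 1 RPM in both libraries, 4 of 20 conserved families (20%), 3 of 18 members (16.7%) and 70 of 345 known miRNAs (20.3%) were called.

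The conserved families and the names first given in moss and green alga were set beside the members as lists of old and of distant names. Of 22 conserved families that passed, 3 were called higher and 2 lower, 22.7% in all, and 14 had a log2 ratio within 1 of 0. Of 29 moss and green alga names, 9 were called higher and 10 lower, 65.5% in all. The members lay between them with 55.3%, close to the 56.9% of all known miRNAs. The lists differ in abundance, which moves with these shares: the median of the mean RPM was 287 for all 24 conserved families, 1.02 for all 51 moss and green alga names and 2.59 for all 52 members. Among names of at least 1 RPM in both libraries, 4 of 20 conserved families (20%) and 3 of 11 moss and green alga names (27.3%) were called. There, the share was 16.7% for the members and 20.3% for all known miRNAs. At 10 RPM or more in at least 1 library, 2 of 20 conserved families were called higher and 2 lower. Of 17 moss and green alga names at that level, 6 were called higher and 6 lower. The part of abundance in the shares was not tested.

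The 38 members fell into 2 kinds by whether they reached 1 RPM in both libraries or in 1 only. At least 1 RPM in both was found for 18, of which miR810, miR835 and miR859 were called higher and none was called lower. The log2 ratios of these 18 lay between -1.35 and 3.78, with a median of -0.17. The other 20 had at least 1 RPM in 1 library only, and 18 of them were called, 7 higher and 11 lower. Names of the second kind passed the filter through the library where they were high, so that a difference was built into them. Among all known miRNAs, 20.3% of 345 names of the first kind and 89.8% of 383 of the second were called, against 16.7% and 90% in the members. All 11 members called lower had at most 3 counts in the Mg-deficient library, while of the 10 called higher this was so in the Mg-sufficient library only for miR840 and miR866, which had none. Of the 21 called members, 13 (61.9%) had at most 3 counts in a library, and of all 414 called known miRNAs 224 (54.1%) did.

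**Figure D3:**
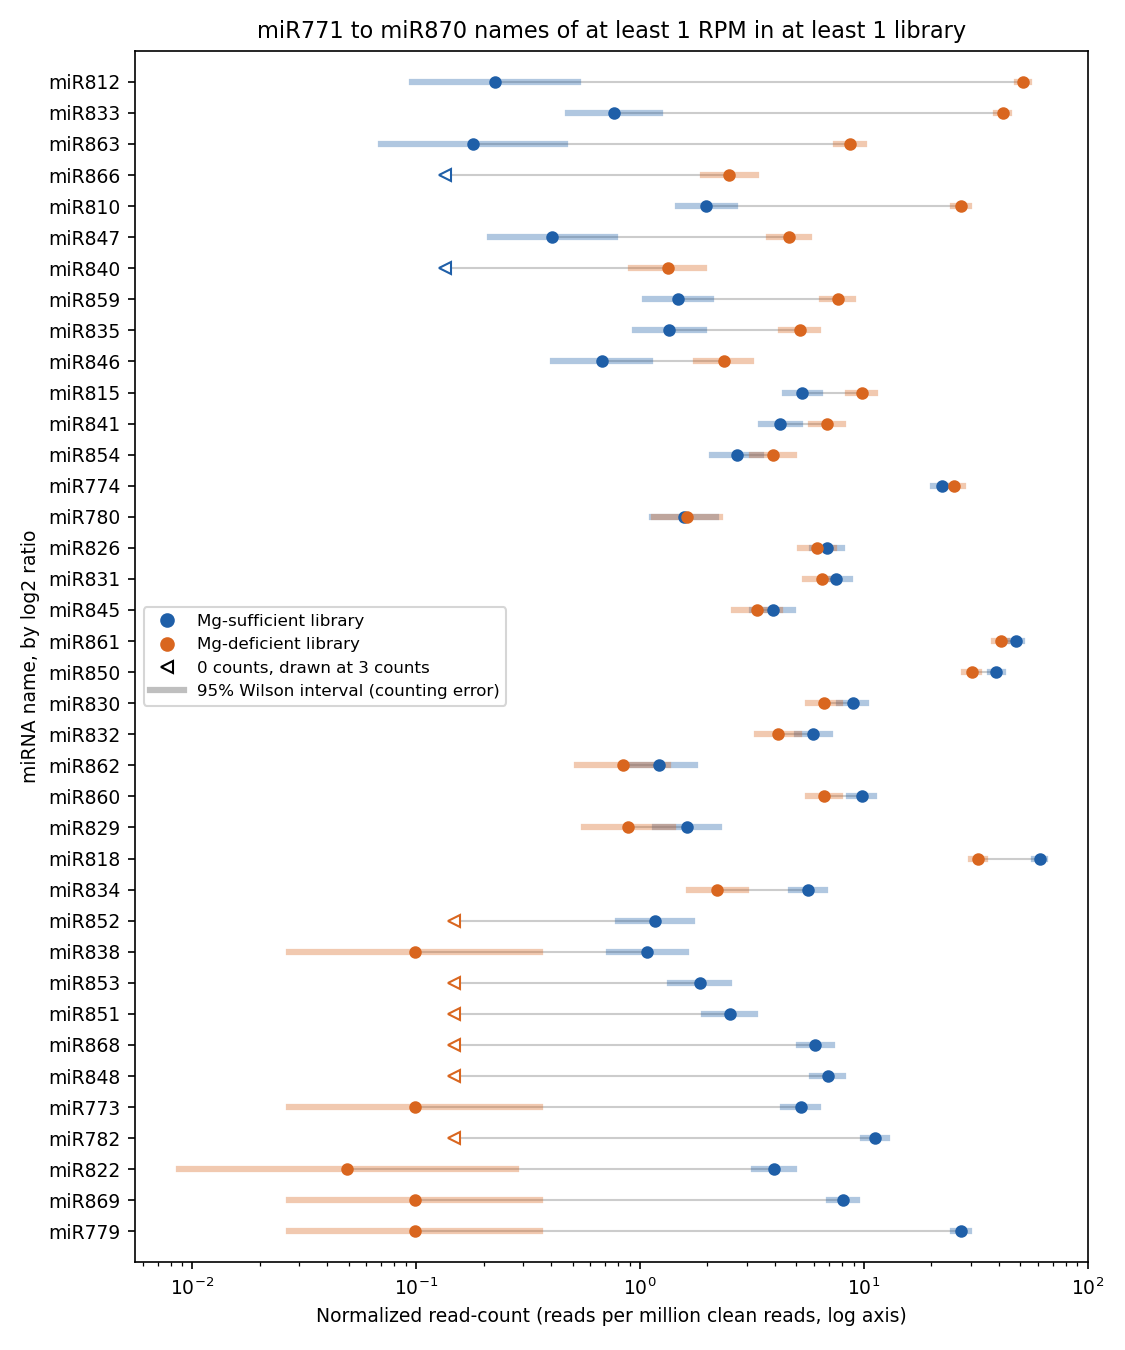
Normalized read-count (RPM, log axis) of the 38 members of at least 1 RPM in at least 1 library, ordered by log2 ratio, in the Mg-sufficient (blue) and Mg-deficient (orange) library. Bars are 95% Wilson intervals, and open triangles mark 0 counts, drawn at 3 counts. The 17 names in the middle lie close together in both libraries, and the 21 called names at the top and bottom are far apart.

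Among the names higher in the Mg-deficient library, miR812 stood first. In rice, miR812 comes from miniature transposons and is mostly 24 nt long, as is the sequence listed here. It had 5 counts (0.225 RPM) in the Mg-sufficient library but 1041 counts (51.2 RPM) under Mg deficiency. This is a 228-fold difference, with a log2 ratio of 7.83 and an interval from 6.60 to 9.46 that is wide because of the 5 counts. MiR833 followed with 17 and 849 counts (0.765 and 41.8 RPM) and a log2 ratio of 5.77 (95% interval, 5.08 to 6.56). Both sequences were thus scarce in the Mg-sufficient library and, with miR861, the most abundant members in the other.

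MiR863, which in Arabidopsis acts in defence against bacteria on receptor-like kinases and on the miRNA factor SERRATE, had 4 counts (0.180 RPM) and 176 counts (8.66 RPM), a log2 ratio of 5.59 (95% interval, 4.21 to 7.48). MiR810, another rice number, had 44 counts (1.98 RPM) and 554 counts (27.3 RPM). With a log2 ratio of 3.78 (3.34 to 4.26), it was the largest difference among the members found at 1 RPM or more in both libraries. No sequence is listed for it.

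MiR859, which targets F-box genes in Arabidopsis, had 33 and 155 counts, or 1.49 and 7.62 RPM, with a log2 ratio of 2.36 (95% interval, 1.81 to 2.95). MiR835 had 30 and 105 counts, or 1.35 and 5.17 RPM, and a ratio of 3.83-fold (log2, 1.94, 1.34 to 2.57). MiR847, which in Arabidopsis silences the auxin repressor gene IAA28, had 9 and 94 counts (0.405 and 4.62 RPM), and was 11.4-fold higher (log2, 3.51, 2.53 to 4.69). These 3 names were therefore low in both libraries.

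The smallest called difference was that of miR846, which targets jacalin lectin genes in Arabidopsis together with miR842. It had 15 and 48 counts and a log2 ratio of 1.81 (95% interval, 0.95 to 2.75), an interval that reaches below the threshold of 1.5. MiR866 had 51 counts (2.51 RPM) in the Mg-deficient library only, and was at least 18.6-fold higher there. MiR840, whose Arabidopsis precursor overlaps the end of a WHIRLY gene, was at 0 with Mg and had 27 counts (1.33 RPM) without it, at least 9.84-fold higher. Under edgeR's exact test, run with a biological variation of 0.4 that was assumed and not measured, miR835 and miR846 were no longer called.

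Of the names lower in the Mg-deficient library, miR779 had the most counts, 603 (27.1 RPM; 95% interval, 25.1 to 29.4) with Mg and 2 (0.0984 RPM, 0.0270 to 0.359) without it. Its log2 ratio was -8.11, with an interval from -11.16 to -6.25. MiR782 had 249 counts (11.2 RPM) and none, and was at least 75.9-fold lower. Both are early Arabidopsis names, as is miR773, which in Arabidopsis targets a DNA methyltransferase gene and had 116 counts (5.22 RPM) and 2 counts, a log2 ratio of -5.73 (-8.79 to -3.84). The early names that passed were thus split, with these 3 nearly absent from the Mg-deficient library and miR774 and miR780 at like levels in both.

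The 8 later names called lower had between 24 and 179 counts in the Mg-sufficient library. MiR869 had 179 counts (8.06 RPM) against 2, a log2 ratio of -6.36 (95% interval, -9.41 to -4.48). MiR822, which in Arabidopsis silences DC1-domain genes and is cut by DICER-LIKE 4, had 88 counts (3.96 RPM) against 1, a log2 ratio of -6.33 (-11.65 to -3.82). In these names a handful of reads set the Mg-deficient value, and the intervals are correspondingly wide.

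MiR848 had 153 counts (6.89 RPM) and miR868 had 135 counts (6.08 RPM) in the Mg-sufficient library, and both were at 0 in the other. They were at least 46.7-fold and 41.2-fold lower, respectively. MiR851, miR853 and miR852 had 56, 41 and 26 counts with Mg and were at 0 without it, at least 17.1-fold, 12.5-fold and 7.93-fold lower. MiR838, which lies in an intron of the DICER-LIKE 1 gene in Arabidopsis, had 24 and 2 counts (log2, -3.46, -6.58 to -1.45), and its 1.08 RPM put it barely past the filter. All 8 passed the filter through the Mg-sufficient library alone.

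The 3 members with the highest mean RPM, miR818, miR861 and miR850, were not called. MiR818, a rice number, had 1355 counts (61.0 RPM; 95% interval, 57.8 to 64.3) with Mg and 658 counts (32.4 RPM, 30.0 to 34.9) without it, a log2 ratio of -0.91 (-1.05 to -0.78). MiR861 had 1066 and 831 counts (48.0 and 40.9 RPM) and a log2 ratio of -0.23 (-0.36 to -0.10). MiR850 had 866 and 617 counts (39.0 and 30.4 RPM), a log2 ratio of -0.36 (-0.51 to -0.21). The small differences of miR861 and miR850 exceeded the counting error but turned above 0 with libraries scaled by known miRNA counts, that of miR861 with edgeR's TMM normalization, and both with DESeq2's size factors. That of miR818 stayed below 0 with each of the 4 library sizes tried.

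MiR774, which in Arabidopsis targets an F-box gene, had 495 and 516 counts (22.3 and 25.4 RPM) and a log2 ratio of 0.19 (95% interval, 0.01 to 0.37), which was -0.07 with the totals exchanged. MiR834 had 125 and 45 counts (5.63 and 2.21 RPM). Its log2 ratio of -1.35 (-1.87 to -0.84) was the largest in size among the names not called, and was -1.60, and called, with the totals exchanged. The other 16 uncalled names had log2 ratios within 1 of 0.

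MiR826, which in Arabidopsis silences a glucosinolate gene under nitrogen starvation, had 152 and 126 counts, a log2 ratio of -0.14 (95% interval, -0.49 to 0.21). MiR860 (217 and 135 counts), miR830 (198 and 135), miR831 (166 and 132) and miR832 (132 and 84) had log2 ratios of -0.56, -0.42, -0.20 and -0.52. All 5 were above 0 with libraries scaled by known miRNA counts. MiR841 (94 and 139 counts) and miR854 (60 and 80) had log2 ratios of 0.69 (0.30 to 1.09) and 0.54 (0.04 to 1.05). MiR780, which in Arabidopsis targets a cation/proton exchanger gene, had 35 and 33 counts, and miR862 had 27 and 17. Over the 17 uncalled names, the interval of the log2 ratio spanned 0 for 5, lay above 0 for 4 and below 0 for 8. These numbers were 7, 8 and 2 with libraries scaled by known miRNA counts, and 4, 2 and 11 with the totals exchanged.

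**Figure D4:**
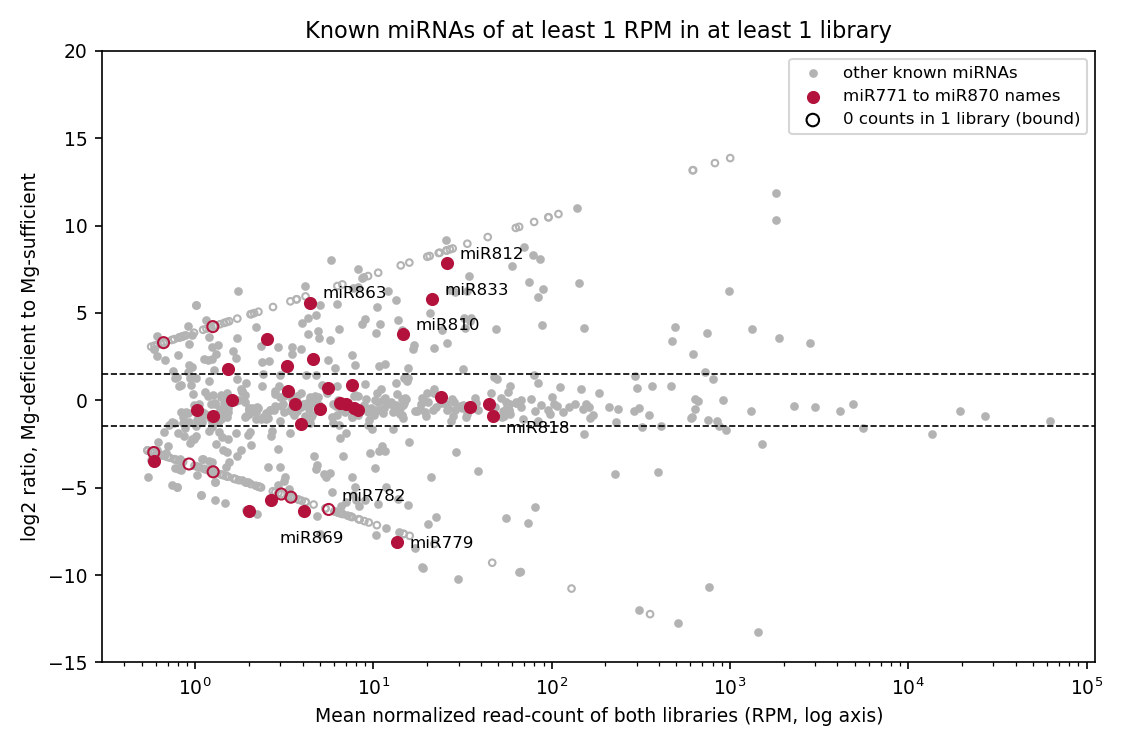
Log2 ratio (Mg-deficient over Mg-sufficient) against mean RPM (log axis) for the 728 known miRNAs of at least 1 RPM in at least 1 library, with the 38 members in red. Dashed lines mark the threshold of 1.5, and open circles are names with 0 counts in 1 library, drawn at their bound. The members lie within the cloud of the other names, between -8.11 (miR779) and 7.83 (miR812).

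Shared sequence could let the same read count under more than one name, and it was looked for in all 690 listed sequences. Among the listed members, only miR815 and miR852 had such a partner, defined as a listed name that shares 17 or more aligned bases with no more than 2 mismatches. The pair of miR815, a rice number, is miR1858, with 18 shared bases and 0 mismatches, and both are shown with the seed in capitals.
miR815: aAGGGUGAugaggaggaguggg
miR1858: gUGAUGAGgaggagugggguc
MiR815 had 118 and 199 counts (5.31 and 9.79 RPM), a log2 ratio of 0.88 (95% interval, 0.55 to 1.22), and was called (1.52) with libraries scaled by known miRNA counts. MiR1858 went the other way with 338 and 227 counts, a log2 ratio of -0.45 (-0.70 to -0.20). Summed over both names, 456 and 426 counts gave a log2 ratio of 0.03 (-0.16 to 0.22). The pair of miR852 is miR5648, with 49 and 4 counts, and the sum of both had a log2 ratio of -4.10 (-6.01 to -2.68). For the other 19 called members with a listed sequence, no near-identical name was found among the listed ones, and for miR810 none could be sought. Of the 1215 names in the table, only those 690 could be compared.

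MiR829 and miR845 hold the longest stretch common to 2 members, 14 bases, printed in capitals. In Arabidopsis pollen, miR845 matches the site at which a methionine tRNA primes the copying of retrotransposons.
miR829: aGCUCUGAUACCAAAugauacgaa
miR845: ugGCUCUGAUACCAAAcugaugca
MiR829 had 36 and 18 counts (1.62 and 0.885 RPM; log2, -0.87, -1.78 to -0.02) and miR845 had 87 and 68 counts (3.92 and 3.35 RPM; log2, -0.23, -0.71 to 0.25). The first 12 of these bases also stand in miR5139, miR8155 and miR1511, which are no members and were looked up after the values were seen.
miR5139: aaccugGCUCUGAUACCA
miR8155: cguaaccugGCUCUGAUACCA
miR1511: accugGCUCUGAUACCAcaaggcg
MiR5139 was the most abundant of the 5, with 1531 and 926 counts (log2, -0.60, -0.72 to -0.48). MiR8155 had 288 and 121 counts (log2, -1.12, -1.44 to -0.81). MiR1511 had 5 and 28 counts (log2, 2.61, 1.22 to 4.34), so that 4 of the 5 names had a log2 ratio below 0 and 1 above. These names are not separate observations. The listed miR5139 lies wholly within miR8155, and all but its first base stands in miR1511, so the same reads could count under each. None of miR829, miR845, miR5139 and miR8155 reached the threshold of 1.5. With libraries scaled by known miRNA counts, the log2 ratios of miR845 and miR5139 were above 0.

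Called members were found in every length class. Of 20 with 23 to 25 nt, 5 were called higher and 5 lower. Of 13 with 21 or 22 nt, 3 were called higher and 4 lower, and of 4 shorter ones 1 was higher and 2 were lower. In the other listed names, 55.7% of 255 with 23 to 25 nt and 50.2% of 291 with 21 or 22 nt were called. Of 107 shorter ones, 63.6% were called. In the members, these shares were 50%, 53.8% and 75%, the last from 4 names only. By first base, 4 of 11 members that begin with A were called higher and 2 lower, and of 22 that begin with U, 5 were called higher and 7 lower. Of the other listed names, 54 of 197 that begin with A were called higher and 57 lower, and of 321 that begin with U, 59 were called higher and 102 lower.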

How the data were processed

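Per the methods, the authors mapped clean reads to the C. sinensis genome (JGI version 1.1) with SOAP, kept perfect matches, removed rRNA, tRNA, snRNA and snoRNA, compared the rest with the plant entries of miRBase 21, allowing 2 mismatches, and deposited raw read counts for each name. How a read matching several names was counted is not given in the sources used here. Reads are copied by PCR without molecular identifiers. The labels' extraction text speaks once of roots, while their tissue and source entries give leaves. The authors' fold changes and p-values in the comparison table were not used, and 0 value columns could not be assigned.

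RPM, Audic-Claverie tails, Wilson and Clopper-Pearson intervals were computed across all 1215 names with Python 3.11.15, numpy 2.4.6 and scipy 1.17.1, and figures with matplotlib 3.10.9. Alternative library sizes came from edgeR 4.0.16 and DESeq2 1.42.0 under R 4.3.3. The rule for calls was checked on simulated Poisson counts for the 1215 names, where it called 200 of 200 names changed by 2.5 on the log2 scale, all drawn from names with a pooled level of at least 10 RPM, and 2 unchanged names. Recovery of scarcer names was not simulated. Variation between libraries beyond counting error was not simulated either, so the 2 unchanged names give no rate of false calls for these libraries. The clean-read totals were taken from the deposited comparison table. The overview of reads in the paper prints these totals, with all read classes, under the opposite treatments. Exchanging the totals alone, with the counts kept, tests only how far the results depend on them. Sequences were read from the study's supplementary list. For 3 members also in its primer list, both lists gave the same sequence. Members of at least 5 RPM in 1 library are described with their counts, the others by ranges or where Arabidopsis work gives a role, a range an extreme or a sequence a near-identical name. The members, lists and rules were chosen with earlier results of these data known.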

Additional observations from a re-analysis of the deposited data

How the results depend on the processing

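No paired analysis was possible because each treatment has 1 library. Requiring at least 1 RPM in both libraries left 18 members and 3 calls higher and 0 lower, where the main rule gave 10 and 11. The requirement removed the 20 members at that level in 1 library only, of which 18 had been called. Among members that reached 10 RPM, the total count of known miRNAs gave 5 calls higher and 1 lower instead of 3 and 2, with miR815 and miR863 added and miR782 lost. TMM scaling (edgeR) and size factors (DESeq2) each gave 1 lower, without miR782, which then missed the filter. Leaving out the rice numbers left 1 higher, miR833. The median log2 ratio of the members moved from -0.30 to 0.41 with the total count of known miRNAs, 0.11 with TMM, 0.14 with the DESeq2 scaling and -0.55 after exchanging the totals. The log2 ratio of the summed members moved from 0.10 to 0.74, 0.44, 0.47 and -0.15 in the same order. These shifts follow from the library sizes themselves. Without miR818 the summed log2 ratio was 0.27. Among members that reached 1 RPM, the number of calls stayed between 8 and 12 higher and between 9 and 13 lower under all other alternatives tried. A log2 threshold of 1 added miR834, and a linear ratio of 1.5 added miR815, miR818, miR834 and miR841. The 4 library sizes changed the call of miR838, miR852, miR815 or miR834 only. Fisher's exact test, 1 count added to both libraries, 0.01 RPM in place of 0 and no abundance filter changed none. The level of a name with at most 3 counts in a library is limited by depth.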
